A study of Callithrix jacchus with 39 samples.

Results

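The pancreas of Callithrix jacchus, the common marmoset (a New World monkey), was represented by 4 ChIP-seq libraries, chosen because their titles name pancreas. Replicates 1 and 2 were immunoprecipitated with an H3K27ac antibody (ab4729) and a further pair, also numbered 1 and 2, with an H3K4me3 antibody (ab8580). They are 4 of the 31 ChIP libraries of the series and hold 114611 of its 872404 peaks. Each was set against the libraries of the same mark from colon, heart, kidney, liver, skeletal muscle, spleen and stomach, 14 lists for H3K27ac and 13 for H3K4me3, because heart has 1 H3K4me3 list. All groups were whole tissues with no treatment named in the labels, which give neither age nor sex, nor whether the replicates came from separate animals. The permutation p-values describe the spread from tissue to tissue among these samples, which may be technical in part. The 8 input samples were not analysed here. What was measured is the position of each peak on the calJac3 build. Read depth is unknown, and a site outside a list is a site where no peak was called. No gene annotation of this build was used, so the pancreas label was not checked against marker genes.

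H3K27ac is an acetylation of histone H3 found at active promoters and active enhancers, whereas H3K4me3 is a methylation concentrated at promoters. A site with H3K27ac and no H3K4me3 is commonly read as a candidate enhancer, the class of element that differs most between cell types. The pancreas consists mainly of exocrine acinar cells, which make digestive enzymes, with ducts that drain them and endocrine islets that release insulin and glucagon. Whole-tissue chromatin averages over all of these together with blood vessels and immune cells, so a rare cell type and a weak signal cannot be told apart.

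The acetylation maps of pancreas were long and of similar size. H3K27ac replicates 1 and 2 of pancreas held 38827 and 37291 peaks, ranks 4 and 5 of 16, against a range of 24590 to 51554 and a median of 33842 in the other tissues. They covered 27.96 and 31.19 Mb, against 17.1 to 47.4 Mb elsewhere. Peaks of replicate 1 were short, with a median of 521 bp, against 623 bp in replicate 2 and 498 to 670 bp in the other tissues. Averaged over its lists, pancreas had 1.11-fold more H3K27ac peaks than the mean of the other tissues (log2 ratio 0.15, n = 1 tissue against 7). In the test of this and of the comparisons that follow, each of the 8 tissues was put in the place of pancreas in turn. That exact permutation test is two-sided and cannot go below p = 0.125, so no comparison between pancreas and the rest could pass 0.05. For the number of H3K27ac peaks the exact permutation p was 0.5, and over the 23 planned comparisons the adjusted p lay between 0.958 and 1.

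The H3K4me3 lists of pancreas were unequal, a trait it shared with skeletal muscle. Replicates 1 and 2 of pancreas held 16386 and 22107 peaks, ranks 15 and 5 of 15, against 16850 and 24424 in skeletal muscle, which are also the lowest and highest values elsewhere. Replicate 1 was the shorter list in 7 of the 7 tissues with a pair of H3K4me3 lists. Peaks of replicate 1 were also narrower, with a median of 693 bp against 939 bp, and 227 of them reached 2 kb against 2199 in replicate 2. Nearly all replicate 1 peaks, 98.6%, were met by a replicate 2 peak, while 64.8% of replicate 2 peaks were met by replicate 1. The shorter list was thus almost a subset of the longer one, and the 7778 peaks of replicate 2 alone were narrow (median 480 bp, against 1250 bp for the shared ones). Of those 7778 peaks 90.0% were met by H3K4me3 of another tissue. With both lists pancreas had fewer H3K4me3 peaks than the mean of the other tissues (log2 ratio -0.09, exact permutation p = 0.625), and with replicate 2 alone a near-equal number (log2 ratio 0.04, exact permutation p = 1). Results on H3K4me3 are given for both lists and for replicate 2 of every tissue alone. Where reproducible H3K4me3 regions are counted, the single heart list was taken whole, with no second list to meet.

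**Figure D1:**
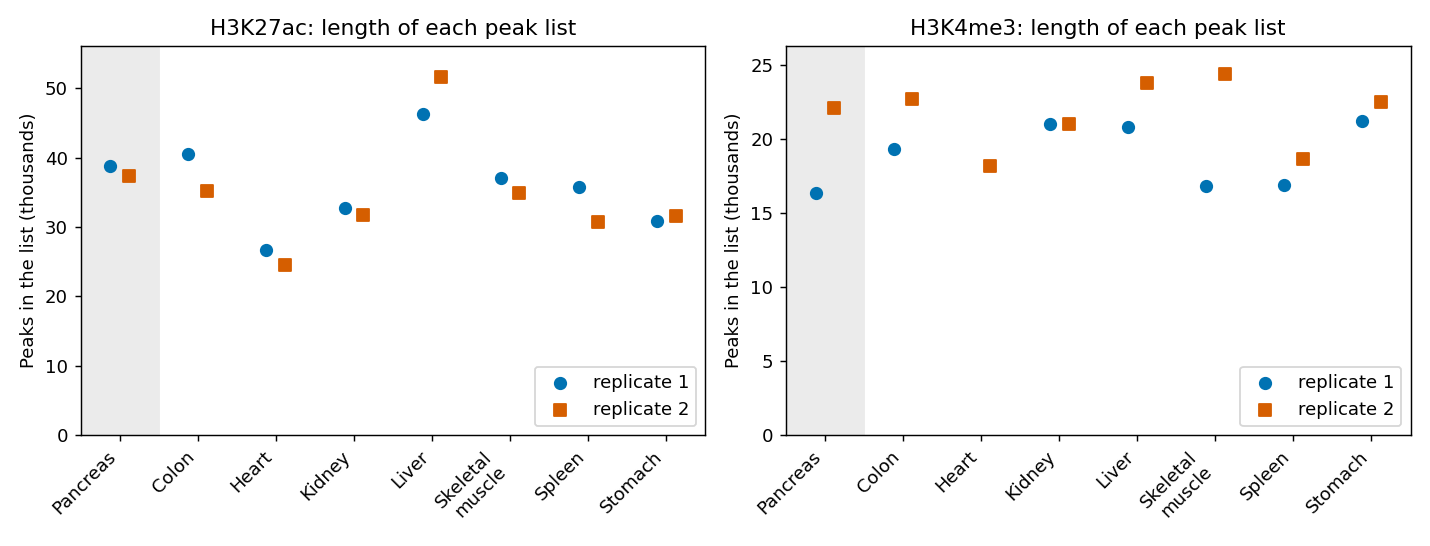
Number of peaks (axis in units of 1000 peaks) in each H3K27ac list (left) and H3K4me3 list (right), by tissue, with a circle for replicate 1 and a square for replicate 2 and pancreas shaded. The H3K27ac lists of pancreas lie close together at 38827 and 37291 peaks, whereas its H3K4me3 replicate 1, with 16386 peaks, is the lowest point of that panel.

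The H3K27ac lists of pancreas differed in what they shared with spleen. Regions acetylated reproducibly in spleen and in no list of colon, heart, kidney, liver, skeletal muscle or stomach numbered 2604. Replicate 1 of pancreas met 431 of them (16.6%) and replicate 2 met 161 (6.18%), a ratio of 2.68. For the same kind of region in the other 6 tissues the ratio of replicate 1 to replicate 2 lay between 0.82 (stomach) and 1.18 (heart). Among these regions replicate 1 thus carried an excess of spleen positions over replicate 2, and for the other 6 tissues the counts were closer to equal. In 6 other tissues the same ratio for spleen regions ran from 0.43 in kidney to 1.83 in heart. A ratio of like size, 2.69, was that of heart regions between the spleen lists (78 against 29 regions). Among the 12145 regions of replicate 1 alone, 3119 were met by exactly 1 other tissue, and in 1093 of these (35.0%) that tissue was spleen. Among the 12051 regions of replicate 2 alone, the count was 281 of 2515 (11.2%), and liver led with 34.2%. Counting any number of tissues, regions of replicate 2 alone were met more often than those of replicate 1 alone by each tissue except spleen. Liver met 41.8% against 29.2% and stomach 30.5% against 17.5%, whereas spleen met 24.4% against 28.9%. In H3K4me3 the short list of replicate 1 met 5 of 121 spleen regions and replicate 2 met 25. Regions of 1 list alone enter the Jaccard values and the counts of partners, which are therefore also given for each list, and they do not enter the reproducible regions of pancreas. The cause of the excess was not tested.

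**Figure D2:**
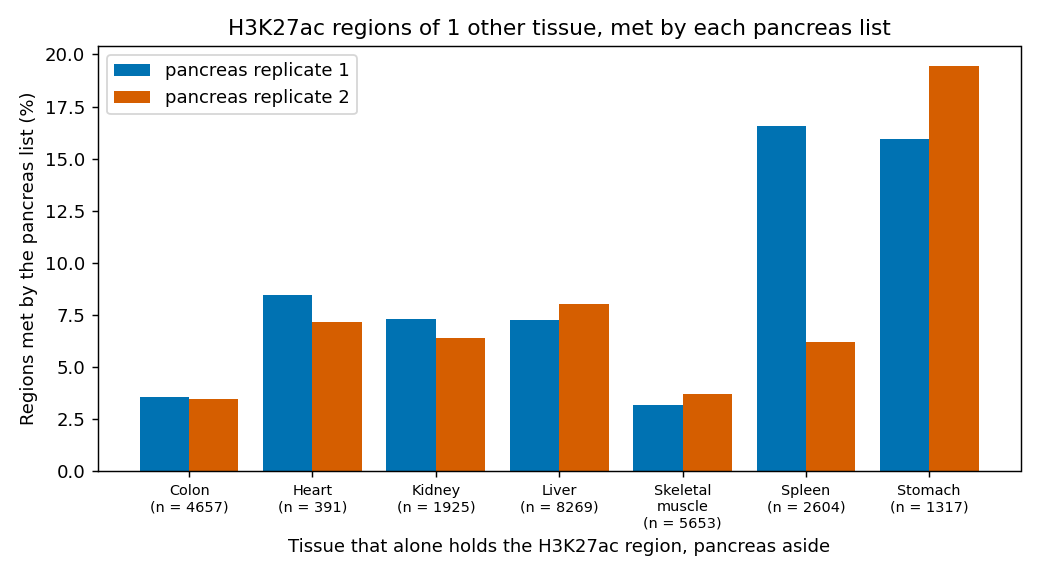
Share (%) of H3K27ac regions found, pancreas aside, in 1 tissue alone that were met by pancreas replicate 1 (left bar of each pair) and replicate 2 (right bar); n is the number of such regions per tissue. The pair for spleen stands apart, with 16.6% in replicate 1 and 6.18% in replicate 2.

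Acetylation recurred between the pancreas replicates mainly where H3K4me3 was present too, as it did in the other tissues. In replicates 1 and 2, 68.7% and 67.7% of H3K27ac peaks were met by the other replicate. The mean of 68.2% compared with 71.6 ± 3.65% in the other tissues (SD, n = 7), a difference of -3.36 points (exact permutation p = 0.625). Peaks that overlapped H3K4me3 of pancreas recurred in 92.2% and 86.7% of cases, and the remaining peaks in 50.3% and 51.1%. Averaged over its lists, pancreas had 89.5% and 50.7%, inside the range of the other tissues. Those ran from 85.8% (kidney) to 90.9% (colon) with H3K4me3, and from 44.2% (heart) to 65.0% (colon) without it. Peaks seen in 1 list alone were shorter, with medians of 367 and 409 bp, against 671 and 826 bp for those in both. For H3K4me3 the overlap averaged 81.7%, against 85.4 ± 4.06% in the 6 other tissues with replicates (SD; difference -3.67 points; exact permutation p = 0.571, where 7 tissues allow 0.143 at the least).

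By the Jaccard index stomach was the tissue whose maps were most like those of pancreas. This index is the bases shared by a pair of lists divided by the bases covered by either. For H3K27ac the index with stomach was 0.410 ± 0.021 (SD over 4 pairs of lists), followed by kidney with 0.361 ± 0.050 and heart with 0.346 ± 0.029. Spleen, colon and liver had 0.336, 0.323 and 0.322, and skeletal muscle was last with 0.282 ± 0.017. The lowest pair with stomach, 0.383, lay above the highest pair with each other tissue except kidney, 0.422. From kidney to liver, neighbours in this order overlapped in their range over pairs. Both pancreas lists placed stomach first and skeletal muscle last when taken singly, and spleen had rank 4 for replicate 1 (0.340) and rank 6 for replicate 2 (0.332). The pancreas replicates themselves had an index of 0.502, above every pair with another tissue. By the share of the shorter list that was held in common, replicate 2 lay nearer heart replicate 2 (75.9%) than pancreas replicate 1 (70.7%). For replicate 1 the other pancreas list stayed first by that measure, with heart replicate 2 next (68.4%). By that share the nearest list of another tissue was thus from heart for both replicates, not from stomach.

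In H3K4me3 stomach was again first, with 0.611 ± 0.088 over both lists (SD, 4 pairs) and 0.700 for replicate 2 against replicate 2 of stomach. Kidney was second in each case, with 0.596 and 0.658. The remaining order moved with the list: heart, with 1 list, had rank 3 over both lists (0.584) and last for replicate 2 alone (0.567). The short replicate 1 list had heart (0.600) and spleen (0.593) as its nearest tissues, whose lists are also short. The index of the pancreas replicates with each other was 0.518, close to the 0.536 that lists of such unequal coverage allow, and 97.8% of the bases of replicate 1 lay in replicate 2. By the index, replicate 2 had rank 9 of 14 lists for replicate 1, and replicate 1 had rank 12 for replicate 2. When each list was cut to its 16000 longest peaks, stomach stayed first in both marks, with 0.437 for H3K27ac and 0.627 for H3K4me3. The average index of pancreas with other tissues was 0.340 for H3K27ac, second of 8 after stomach, against 0.308 ± 0.029 for the same average in the other tissues (SD, n = 7; exact permutation p = 0.5). For H3K4me3 it was 0.574 over both lists, against 0.582 ± 0.021 (exact permutation p = 0.875), and 0.633 for replicate 2 alone, against 0.600 ± 0.026 (exact permutation p = 0.375). Stomach itself had the highest such average of the 8 tissues in each case (0.353, 0.615 and 0.643). Its lists were thus close to those of other tissues in general, not to pancreas alone.

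**Figure D3:**
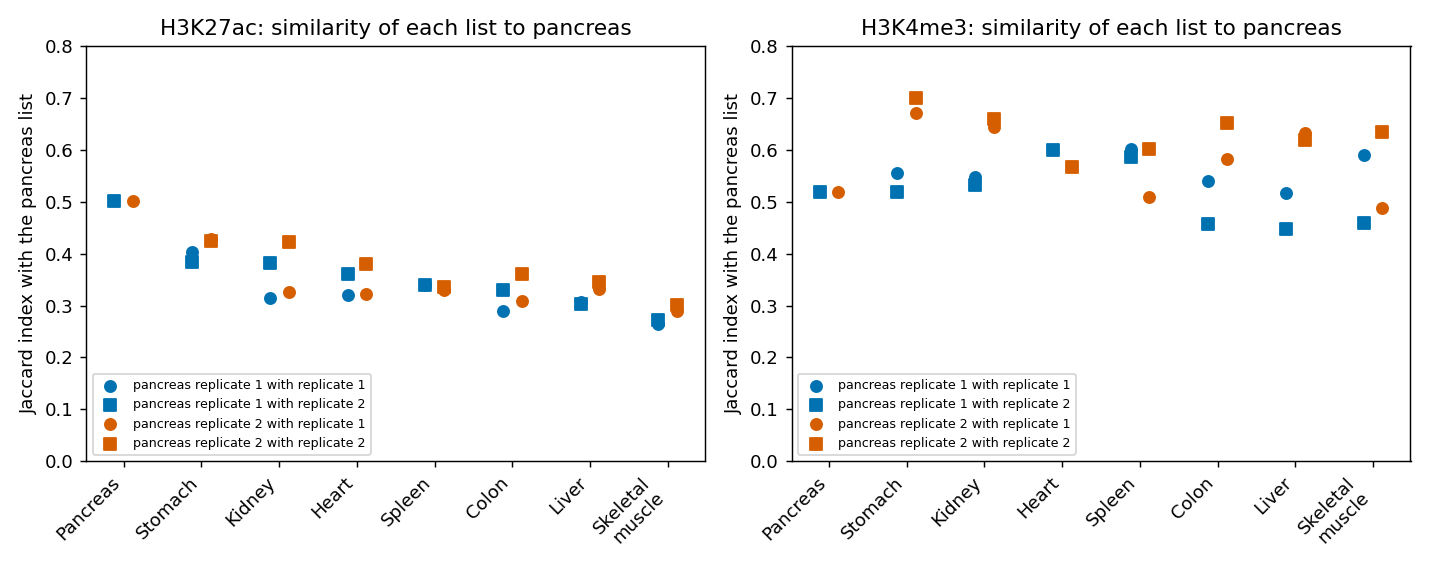
Jaccard index of each pancreas list with each list of the tissues named, for H3K27ac (left) and H3K4me3 (right), coloured by pancreas replicate and shaped by the replicate of the other list; tissues are ordered by their H3K27ac mean. Stomach is the nearest tissue for H3K27ac (mean 0.410), and in H3K4me3 most points of replicate 2 lie above those of the short replicate 1.

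Pancreas had 23348 reproducible H3K27ac regions, defined as regions of either list met by the other and merged. Of these 14207 overlapped H3K4me3 of a pancreas list and are called promoter-like, and the other 9141 (39.2%) are called enhancer-like, names that stand for this rule alone. With H3K4me3 replicate 2 alone the counts were 14168 and 9180, and with the short replicate 1 alone 11665 and 11683. The longer H3K4me3 list thus fixed the classes almost by itself. The enhancer-like share was the same as the mean of the other tissues, 39.2 ± 7.19% (SD, n = 7; difference -0.0083 points; exact permutation p = 1). Promoter-like regions were longer, with a median of 1202 bp against 834 bp.

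Promoter-like acetylation of pancreas was mostly common to all tissues, whereas enhancer-like acetylation was spread over every number of tissues. Of 9141 enhancer-like regions 7465 were shared with another tissue. Pancreas alone was still the largest single group, and counts declined with each further tissue. Of the promoter-like regions 9964 (70.1%) were met by H3K27ac of all 7 other tissues and 200 (1.41%) by none. Of the enhancer-like regions 664 (7.26%) were met in all 7 and 1676 (18.3%) in none, with 1452, 1415, 1250, 1063, 873 and 748 regions met in 1 to 6 other tissues. The regions met by no list of another tissue are called restricted, 1876 in all, 8.03% of the reproducible regions and 6.07% of their covered bases.

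**Figure D4:**
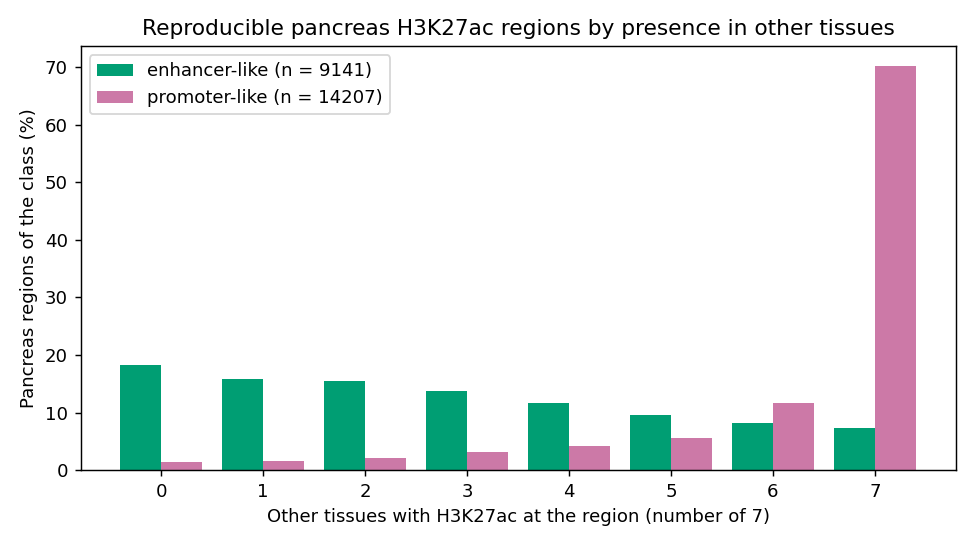
Share (%) of the 9141 enhancer-like and 14207 promoter-like H3K27ac regions of pancreas by the number of other tissues, 0 to 7, with H3K27ac at the region. Enhancer-like shares decline from 18.3% at 0 to 7.26% at 7, whereas 70.1% of promoter-like regions stand at 7.

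Restriction to pancreas was less frequent than the average for another tissue, though well within the range of tissues. The 18.3% of restricted enhancer-like regions compared with 26.9 ± 14.8% over the other tissues (SD, n = 7; difference -8.58 points; exact permutation p = 0.75), and pooled over those tissues the share was 31.1%. Skeletal muscle, liver, colon, spleen and kidney had higher shares (46.6% to 20.9%), and stomach (12.3%) and heart (7.32%) had lower ones. The 1.41% of restricted promoter-like regions compared with 2.32 ± 2.08% (difference -0.91 points; exact permutation p = 0.75) and with 2.49% pooled over the other tissues. Classes drawn with H3K4me3 replicate 2 alone left 1679 enhancer-like and 197 promoter-like restricted regions. When H3K27ac replicate 2 was left out, so that no second list was needed for a pancreas region to count, the difference in the enhancer-like share turned to 2.11 points and that in the promoter-like share to 0.34. The restricted regions then numbered 6991, and 5750 when replicate 1 was left out. These larger counts follow from counting regions of a single list.

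A test of each region alone cannot separate pancreas from the rest at this number of lists. Over the 65161 regions that were reproducible in some tissue, Fisher's exact test of presence in the 2 pancreas lists against the 14 others gave p of 0.00833 at the least. This test takes the lists of a tissue as independent, which makes its p too small where they are not. After Benjamini-Hochberg adjustment over all regions the smallest p of Fisher's exact test was 0.289, so 0 regions passed an adjusted 0.05. Unadjusted, 2654 regions (4.07%) fell under 0.05 in Fisher's exact test, 2648 of them more frequent in pancreas and 6 less frequent. This direction follows from the rule and is no result about pancreas. A restricted region entered the set only through the pancreas lists, which fixed its p in advance. A region less frequent in pancreas had to be present in nearly all other lists to fall under 0.05. The 1878 regions at the smallest p are the 1876 restricted ones and 2 regions that pancreas lacked.

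Pancreas lacked only 2 of the regions acetylated in all other tissues, and both carried H3K4me3 there. Merged regions reproducibly acetylated in all 7 other tissues numbered 7483, and both pancreas lists missed only 2 of them (0.0267%), the lowest share of the 8 tissues, against 0.865 ± 0.981% in the other tissues (SD, n = 7; difference -0.84 points; exact permutation p = 0.25) and 0.882% pooled over them. One lay at chr22:2819979-2823120, where the pancreas H3K4me3 lists had 0.482 and 0.814 kb and all 14 other H3K27ac lists were acetylated, over at most 1.98 kb. The other lay at chr15:64245011-64247713, with 0.917 and 1.23 kb of H3K4me3 in pancreas and again acetylation in 14 other lists. H3K4me3 was thus called at both without a called acetylation peak. H3K4me3 is usual at widely acetylated positions: of 10628 pancreas H3K27ac regions met in all 7 other tissues, 9964 overlapped pancreas H3K4me3. Its presence at 2 regions is therefore no trait of what pancreas lacked. The count of missed regions rests on replicate 2 and on what is called an overlap. Without replicate 2 the remaining list missed 27 regions (0.361%, rank 5 of 8; exact permutation p = 0.75), without replicate 1 it missed 4, and 443 were missed when 50% of a region had to be covered.

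For H3K4me3 itself, 4 of 10876 regions present in all other tissues were missed by both pancreas lists (0.0368%, against 0.235 ± 0.319%; exact permutation p = 0.75; 0.236% pooled over the others). Heart had the highest share (0.831%), but a region had to be absent from only 1 heart list. With replicate 2 alone 23 of 12834 were missed (0.179%, the lowest of 8 tissues, against 1.87 ± 1.99%; exact permutation p = 0.375; 1.9% pooled). The short replicate 1 missed 370 of the 10876 (3.40%). The regions it missed were narrower than those it met, with a median of 1269.5 bp against 1821 bp.

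Liver was the tissue that most often met the enhancer-like regions of pancreas, although it was low in the Jaccard index. Some 56.7% of the 9141 enhancer-like regions were met by a liver list, 48.5% by stomach, 43.2% by kidney, 38.1% by colon, 36.9% by spleen, 30.4% by heart and 28.3% by skeletal muscle. Among promoter-like regions the range was 94.3% for liver to 82.7% for skeletal muscle. Liver has the longest lists (its merged regions cover 56.7 Mb, against 30.9 Mb in stomach), and a long list can raise such shares and lower a Jaccard index. The part of list length in either order was not tested.

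The same tissue led among the 1452 enhancer-like regions shared with exactly 1 other tissue. Liver was the partner of 564 (38.8%, exact Clopper-Pearson 95% interval 36.3 to 41.4%, counting error only) and stomach of 264 (18.2%). Spleen was the partner of 154, colon of 151, skeletal muscle of 140, kidney of 118 and heart of 61. Per 1000 merged regions of the partner, liver had 9.65 such regions and stomach 7.15, and the other tissues had 1.90 to 3.66. Sharing with 1 tissue alone need not grow in proportion to list length, whose part in this order was not tested. Both liver lists held the region in 62.2% of the 564 cases, and both stomach lists in 42.8% of the 264. Liver was first in 23 of 23 alternative settings, with 31.0% when each list was cut to its 16000 longest peaks and stomach at 22.7%. The place of spleen depended on the pancreas list: with replicate 1 alone spleen held 26.8% and stood next to liver (28.9%), and with replicate 2 alone it held 11.5%. The lead of liver was not particular to pancreas. By the same count liver was also the first partner of kidney (608 of 1215 regions), spleen (758 of 1757) and skeletal muscle (552 of 1921). Its share was higher than in pancreas for kidney and spleen, and lower for skeletal muscle. Colon, heart and stomach had another first partner. Seen from the partners, with both pancreas lists pancreas was the partner of 23.0% of the 3215 liver, 25.2% of the 1757 spleen, 17.7% of the stomach and 13.3% of the kidney regions shared with 1 other tissue, rank 2 in each. For spleen this rested on replicate 1: with that list alone the share was 20.9% (rank 2), and with replicate 2 alone 8.34% (rank 5). Rank 2 held with either list alone for stomach, only with replicate 2 for liver and with neither for kidney.

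Restricted enhancer-like regions of pancreas lay far from H3K4me3. Their median distance to the nearest pancreas H3K4me3 peak was 48.4 kb (quartiles 15.7 and 103.3 kb), against 23.8 kb (5.52 and 65.6 kb) for enhancer-like regions shared with another tissue. Within 10 kb of H3K4me3 lay 18.9% of restricted and 33.6% of shared regions, and beyond 100 kb lay 25.8% and 15.5%. The restricted median was the highest of 8 tissues, 1.44-fold above the mean of the others, 33.6 kb, though heart was next with 47.9 kb (log2 ratio 0.53, exact permutation p = 0.25). Without H3K27ac replicate 1 it was 42.4 kb, below heart (log2 ratio 0.34, exact permutation p = 0.5), and without H3K4me3 replicate 2 it was 62.5 kb (log2 ratio 0.89, exact permutation p = 0.125). It was 49.2 kb with H3K4me3 replicate 2 alone, close to the value with both lists. The shared regions of pancreas were the farthest of the 8 tissues as well.

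The distance was also measured to the nearest H3K4me3 peak of any tissue of the series, a comparison added after the values were seen and left unadjusted. The restricted regions of pancreas lay 30.7 kb from it at the median, the highest of 8 tissues, against 18.7 to 26.7 kb in the others and a mean of 21.8 kb. The ratio was 1.41-fold (log2 0.49), and the exact permutation p of 0.125 is the smallest the design allows. Kidney was next to pancreas. Without H3K27ac replicate 1 the order was lost, with 26.92 kb in pancreas and 26.97 kb in kidney (log2 ratio 0.30, exact permutation p = 0.25). The ratio of restricted to shared distance in pancreas was 2.03-fold, against 1.83-fold in the other tissues (rank 3 of 8; exact permutation p = 0.75). Restricted regions were the more distant in 8 of 8 tissues (exact permutation test by sign flips over tissues, p = 0.00781, the smallest possible), so that pattern was common to the series. The tissues are not independent here, because each split into restricted and shared used the lists of the other tissues, so this p is nominal. Shared regions of pancreas also met H3K4me3 of another tissue more often (27.5% against 1.07%). How far the rule sets the direction was not tested.

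**Figure D5:**
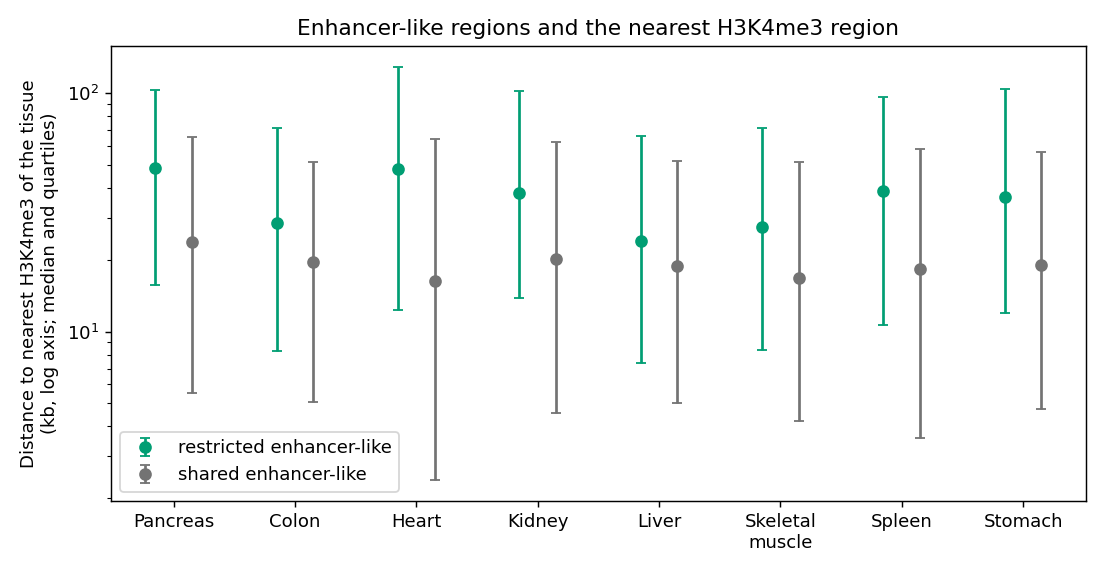
Distance from enhancer-like H3K27ac regions to the nearest H3K4me3 peak of the same tissue (kb, log axis), as the median with quartiles, for restricted regions (left point of each pair) and shared regions (right point). The restricted median of pancreas, 48.4 kb, is the highest of the 8 tissues, with heart at 47.9 kb.

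At restricted enhancer-like positions of pancreas H3K4me3 was also rare in the other tissues. H3K4me3 of another tissue met 18 of the 1676 restricted regions (1.07%) and 2056 of the 7465 shared ones (27.5%), a difference of -26.5 points. The other tissues averaged -20.2 points. Because H3K4me3 regions are mostly acetylated, the rule that restricted regions lack H3K27ac elsewhere largely fixes this direction, and the values are given as a description. Restricted promoter-like regions behaved otherwise. H3K4me3 of another tissue was present at 65 of the 200 (32.5%), and at 11 of them in all 7 tissues, against 99.2% of the promoter-like regions shared in acetylation. At those 65 positions the methylation was found in at least 1 other tissue and the acetylation in pancreas alone. Restricted enhancer-like regions were slightly shorter than shared ones, with medians of 764.5 and 852 bp (0.897-fold, against 0.836-fold in the other tissues; exact permutation p = 0.25).

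Restricted regions of pancreas lay partly in groups, and whether more or less often than in other tissues depended on the lists. Joined when 12 kb or less apart, the 1876 regions formed 1464 clusters, of which 305 held at least 2, 73 at least 3 and 8 at least 5 regions. The share of restricted regions in a cluster of at least 2 was 38.2%, against 38.3 ± 14.1% in the other tissues (SD, n = 7; difference -0.11 points; exact permutation p = 1). The difference turned to 15.1 points without H3K27ac replicate 1, to 2.95 without replicate 2 and to 1.11 with regions joined within 5 kb.

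The 10 clusters with the most restricted acetylation were found on 6 chromosomes, 3 of them on chromosome 8 and 3 on chromosome 14. The first, chr8:103797970-103811025, held 5 restricted regions and 7.52 and 9.18 kb of H3K27ac in replicates 1 and 2 (8.35 ± 1.17 kb, SD, n = 2), with none in any other tissue. It also held 0.831 and 3.10 kb of H3K4me3 in pancreas and none elsewhere. The fourth, chr8:103405060-103417671, lay 380 kb from the first on the same chromosome, with 6.46 and 6.08 kb of H3K27ac and 1.96 and 3.31 kb of H3K4me3, again in pancreas alone. Both were therefore marked by acetylation and by promoter methylation in every pancreas list and in no list of another tissue.

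The second cluster, chr1:177131636-177144961, held 5 regions with 5.22 and 8.02 kb of H3K27ac and no H3K4me3. At 6.64 kb from it lay an H3K4me3 region restricted to pancreas, chr1:177151605-177155239, of 2.94 and 3.64 kb in the pancreas lists. Its acetylation was not restricted: 3 H3K27ac lists of other tissues had up to 2.56 kb (spleen), against 2.89 and 3.01 kb in pancreas. The third, chr8:115875618-115883554, had 5.31 and 6.43 kb of H3K27ac and overlapped the longest H3K4me3 region restricted to pancreas, chr8:115873075-115878711, which had 4.78 and 5.64 kb in replicates 1 and 2. At that H3K4me3 region a liver list had 1.51 kb of H3K27ac, outside the cluster. The fifth, chr14:51324468-51347615, was the longest, with 9 regions over 23.1 kb and 5.11 and 8.44 kb of H3K27ac, and contained a further restricted H3K4me3 region (0.894 and 3.55 kb). In these cases acetylated clusters and restricted promoter marks thus stood side by side.

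Of the remaining named clusters, chr7:20799577-20812021 was the one with promoter methylation in other tissues. It had 5.75 and 5.67 kb of H3K27ac in pancreas alone, whereas 7 lists of other tissues carried H3K4me3 there. The cluster at chr14:39159104-39165461 (3.81 and 5.66 kb) had no H3K4me3 peak of pancreas within 273 kb. The clusters at chr16:19462013-19470661 and chr14:81731264-81753092 had up to 0.543 and 0.776 kb of H3K27ac in other tissues, in the gaps between restricted regions. The tenth, chr13:36402833-36414428, held 3.79 and 4.58 kb and lay 19.0 kb from H3K4me3. In all, 8 of the 10 clusters had no acetylation of another tissue in their span, 7 had pancreas H3K4me3 within it, and 5 had it in both lists. Restricted regions lack acetylation elsewhere by rule, so only the gaps between them could carry it. The 10 were picked by size. Matching shares over all 1464 clusters are not given, so these counts describe the named clusters alone. Replicate 2 had the longer acetylation in 8 of the 10.

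The longest restricted promoter-like region differed from these clusters in its methylation. At chr3:109588674-109592323 the pancreas lists had 3.19 and 3.55 kb of H3K27ac and 1.78 and 2.82 kb of H3K4me3. No other tissue had H3K27ac there, but all 13 other H3K4me3 lists had a peak, of up to 2.43 kb in skeletal muscle. The next longest outside the clusters were chr12:24075233-24078543, with 2.25 and 3.31 kb of H3K27ac and 2.22 and 2.44 kb of H3K4me3, and chr8:4905258-4908393, with 2.83 and 3.06 kb of H3K27ac and H3K4me3 in replicate 2 alone (0.573 kb). Another, chr12:3403251-3406375, had 2.11 and 3.13 kb of H3K27ac and 0.891 and 2.13 kb of H3K4me3. Neither mark was found at these positions in another tissue.

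H3K4me3 of pancreas was shared more widely than its acetylation. Of 14182 reproducible H3K4me3 regions 12404 (87.5%) were met in all 7 other tissues and 106 (0.747%) in none. The restricted share of the other tissues was 1.65 ± 1.55% (SD, n = 7; difference -0.90 points; exact permutation p = 0.75) and 1.72% when pooled. With replicate 2 alone 13435 of 22107 regions (60.8%) were met in all 7, and 957 (4.33%) in none, against 6.33 ± 4.79% (exact permutation p = 1) and 6.71% pooled. The 957 regions were narrow, with a median of 413 bp, against 1553.5 bp for the 106. Of the 106 regions 91 were acetylated in pancreas, and 46 met a restricted H3K27ac region. Among the longest, chr17:28413958-28418350 had 0.848 and 4.39 kb of H3K4me3 with 3.32 and 2.39 kb of H3K27ac, whereas chr9:6551485-6556206 had 0.454 and 4.66 kb of H3K4me3 with H3K27ac in replicate 2 alone (0.575 kb). At both, replicate 1 held a small part of the methylation of replicate 2.

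Few H3K4me3 regions of pancreas lacked acetylation. Without a pancreas H3K27ac peak were 1400 of the 14182 regions (9.87%), the second lowest share of 8 tissues after liver, against 16.4 ± 4.08% in the others (SD, n = 7; difference -6.56 points; exact permutation p = 0.25). With replicate 2 alone the count was 5121 (23.2%, against 24.7 ± 6.57%; exact permutation p = 0.625), so the low share was seen where the short list was used. Regions without acetylation were narrower, with a median of 842.5 bp against 1325 bp over both lists, and 68.6% of them were acetylated in another tissue, against 98.8% of those with acetylation in pancreas.

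Broad H3K4me3 domains came almost wholly from replicate 2. Regions of at least 4 kb numbered 1 and 53 in replicates 1 and 2, against 0 to 89 in the lists of other tissues (median 22). Some H3K4me3 region of another tissue met 94.3% of the 53, and a region of at least 4 kb met 52.8%, so that 25 were not met by a region of this length. Of the 53, 98.1% carried H3K27ac in pancreas. Of the 5 longest H3K4me3 regions of pancreas 2 lay on unplaced sequences, each acetylated in replicate 2 alone of the pancreas lists (7.49 and 6.33 kb) and in 9 and 11 lists of other tissues. The longest on an assembled chromosome, chr11:121163856-121170597, measured 4.63 and 6.68 kb in the pancreas lists and was present in all 13 other lists. At chr10:111113135-111119466 the pancreas lists had 3.74 and 6.33 kb of H3K4me3 and 5.23 and 5.63 kb of H3K27ac, against at most 4.96 and 3.55 kb in a list of another tissue. At chr14:40441547-40447576 the values were 4.58 and 6.03 kb of H3K4me3 and 5.33 and 5.57 kb of H3K27ac in pancreas, against at most 5.50 and 5.18 kb elsewhere.

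The restricted regions were unevenly placed along the genome, in pancreas as in the other tissues. Over the 23 chromosomes with at least 100 enhancer-like regions the restricted share had a median of 18.3%. It was highest on chromosomes 3 (25.3%), 8 (24.7%) and 14 (24.0%), against 37.7%, 37.8% and 34.3% pooled over the other tissues on the same chromosomes. It was lowest on chromosome 22 with 7.23%, against 18.3% in the other tissues, and next on chromosome 18 with 10.6%, against 27.3%.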

How the data were processed

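ChIP-seq peak lists of 31 libraries were analysed, 1 list per library, so peaks were called per sample. Per the labels, a TruSeq kit was used for the DNA libraries. MACS2 2.1.1.20160309, Bowtie 1.1.2, bedtools 2.26 and SAMtools 1.3.1 are listed, per the submitters' processing notes, which give them neither role nor order. How inputs entered peak calling was not given in the sources used here. The deposited values used are positions alone (sequence, start and end), and the build calJac3 is that in the peak names. Depth per library is unknown, and a deeper library yields a longer list.

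Overlap meant at least 1 bp. Computation used numpy 2.4.6, scipy 1.17.1 and matplotlib 3.10.9 under Python 3.11.15, and the code was first tested on simulated data with planted regions. Pancreas was compared with the mean of the other tissues by an exact permutation over tissues, two-sided, with Benjamini-Hochberg adjustment over 23 planned comparisons. A further 4 comparisons were added after the values were seen. Named were the 10 clusters with the most restricted acetylation, the longest restricted H3K4me3 and promoter-like regions, the regions missing from pancreas and the longest H3K4me3 regions. Members, classes and lists were chosen with earlier results of these data known. No peak was assigned to a gene, because the gene table used here is of another assembly, and no sequence was read.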

Additional observations from a re-analysis of the deposited data

How the results depend on the processing

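The 27 comparisons of pancreas with the other tissues were recomputed under 619 alternatives, of which 598 kept the direction and 21 reversed it, and 13 comparisons kept it throughout. The liver share, the counts of restricted and missing regions and the comparisons added later were tried under settings chosen after seeing the data. A stricter peak threshold was not run, because only positions were used. The depth behind the lists is unknown and no comparison could pass 0.05, so calls could not be lost. With the 16000 longest peaks of each list the H3K27ac replicate overlap differed by 1.02 points, the restricted regions numbered 677 and the liver share was 31.0%. Peaks of at least 500 bp gave 1004 restricted regions and 0 missing ones, and overlap of at least 50% gave 443 missing ones. Joining within 5 kb turned the clustered share to 1.11 points.

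Most reversals came from leaving out a pancreas list, which by construction makes every peak of the remaining list count as reproducible. Over the lists left out in turn, pancreas minus the other tissues ranged, in percentage points, from -3.08 to 16.9 for the enhancer-like share, -11.8 to 2.11 for restricted enhancer-like and -1.47 to 0.34 for restricted promoter-like regions, and -3.97 to 15.1 for the clustered share. It ranged from -2.43 to 2.34 for the restricted share of H3K4me3, -0.68 to 3.17 for its missing share, -9.09 to 6.73 for H3K4me3 without H3K27ac, and -3.43 to 6.48 for the last with replicate 2 alone. On the log2 scale it ranged from -0.31 to 0.12 for H3K4me3 list length, -0.59 to 0.31 for its covered length, -0.0058 to 0.32 for the restricted against shared distance and -0.011 to 0.14 for the matching length. The H3K4me3 Jaccard difference ranged from -0.038 to 0.021, the liver share from 28.7 to 41.7%, the restricted count from 1900 to 6991 and the missing count from 2 to 27.

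The labels do not say that a replicate number marks a shared animal. The correlation of the deviations of same-numbered lists lay between -0.020 and 0.070 over 28 pairs of tissues in H3K27ac, and between 0.016 and 0.319 over 21 pairs in H3K4me3, where 7 exceeded 0.1. Not every pair did, so the numbers were not taken to pair the samples. In H3K4me3, though, replicate 1 had fewer peaks, less covered length and a shorter median peak than replicate 2 in 7 of 7 tissues, and the cause was not tested. With the replicate block the difference in H3K27ac list length was 0.15 on the log2 scale and that in replicate overlap -3.36 points, as without it. Where every tissue has both lists, the block returns the same difference by construction. It could move only H3K4me3 comparisons that include the single heart list, such as list length (log2 ratio -0.097 with the block, -0.092 without). That it reversed none of the 8 comparisons is therefore little check, although they count among the alternatives that kept the direction.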
